A study of Mus musculus with 21 samples.

Results

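The genes described here are 47 genes of the entry to and exit from the endoplasmic reticulum (ER), out of 55414 gene identifiers in the count table of sorted mouse Paneth cells. They were taken by symbol as a fixed list, which was chosen with earlier results of these data known. All 47 passed the filter on low counts. By role they comprised 6 genes of the signal recognition particle, 2 of its receptor, 5 of the Sec61 channel and 4 of the translocon-associated protein complex (TRAP). A further 5 encode signal peptidase, 7 the oligosaccharyl transferase, 10 the COPII coat, 4 p24 cargo proteins, 2 a cargo receptor pair and 2 KDEL receptors. The comparison they serve is whether secretory capacity (these genes) followed secretory output (the Defa genes, which encode the α-defensins) over the 6 groups of the study.

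The study sorted Paneth cells by FACS from the small intestine of C57BL/6J mice that drank Milli-Q (purified) water or water with 200 mM ZnSO4, as labelled, for 7 weeks. The mice of each water were specific pathogen free (SPF), SPF with broad-spectrum antibiotics for the final 3 weeks, or germ-free. Of the 21 libraries, 6 were from SPF mice and 8 from mice on antibiotics, divided equally between the waters, and 7 from germ-free mice, 3 on Milli-Q and 4 on zinc water. The study describes its sorted samples as cells of individual mice, so each library is taken as a separate mouse, although the labels name no animals and give neither age nor sex.

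A secreted protein is recognised by its signal sequence while it is still being translated. The signal recognition particle brings the ribosome to its receptor on the ER, the Sec61 channel lets the chain through, signal peptidase removes the signal sequence and the oligosaccharyl transferase adds N-glycans. Folded cargo leaves in COPII-coated carriers, helped by p24 proteins and cargo receptors, while KDEL receptors return escaped ER residents. Paneth cells are professional secretory cells that pack α-defensins, lysozyme and other antimicrobial proteins into large granules.

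Total counts ranged from 9888174 to 16896714 per library, of which the 47 genes held 34974 to 102485. The 5 Paneth cell markers took 24.9 to 42.8% of the counts of every library, and the stromal markers at most 0.000381%, with 3 of the 6 or more at 0 in every group. Markers of other cell types, apart from these stromal markers, that separated a pair of groups are given with that comparison. Xist, which is transcribed from the inactive X chromosome of females, had 6228 counts in SPF zinc replicate 1 and at most 34 elsewhere. Counts of members called without that library are given where they changed. Bulk libraries cannot tell fewer cells of a type from less RNA per cell.

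Levels between genes were compared as CPM, counts scaled to a common library size with TMM factors (edgeR's correction for the make-up of a library), per kilobase of the longest annotated transcript. On this scale Sec61b, the small β subunit of the protein channel, had the highest median over the 21 libraries at 112 CPM per kb, and Sec61a1, the pore itself, stood at 77.4. Ssr4 and Ssr3 of TRAP followed the same order of magnitude at 81.6 and 72.7 CPM per kb. In the oligosaccharyl transferase Ddost, Rpn1, Ostc and Rpn2 lay at 65.9, 63.5, 60.2 and 56.3 CPM per kb, above its catalytic subunits Stt3a at 21.4 and Stt3b at 12.2. Dad1, a further non-catalytic subunit, lay at 20.7 CPM per kb, between the catalytic subunits. The lowest 2 medians per kb were those of Srp54a at 0.938, which binds the signal sequence, and Sec61g at 1.80. Srp54a has the near-identical copies Srp54b and Srp54c, and the annotated Sec61g transcript may be longer than the expressed one, so both levels are uncertain. The same may hold for other genes, such as Dad1 and Ssr4, whose longest annotated transcripts have 3681 and 3426 bases. The order of genes per kb, with the place of Dad1 in the transferase, is therefore uncertain.

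Within the COPII coat, levels per length set paralogs apart. Sec13 and Sec31a, the outer cage, had medians of 39.7 and 36.9 CPM per kb. Of the cargo-binding Sec24 proteins, Sec24c stood at 20.9 and Sec24d at 15.6 CPM per kb, while Sec24b and Sec24a stood at 4.12 and 3.82. Sec23b, the activator of the coat GTPase, was at 18.6 and its paralog Sec23a at 2.51 CPM per kb. The ranges of Sec24c and Sec24d overlapped, whereas every library had more Sec23b than Sec23a per length. Among p24 proteins Tmed3 and Tmed9 stood at 44.9 and 42.7 CPM per kb, with overlapping ranges.

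**Figure D1:**
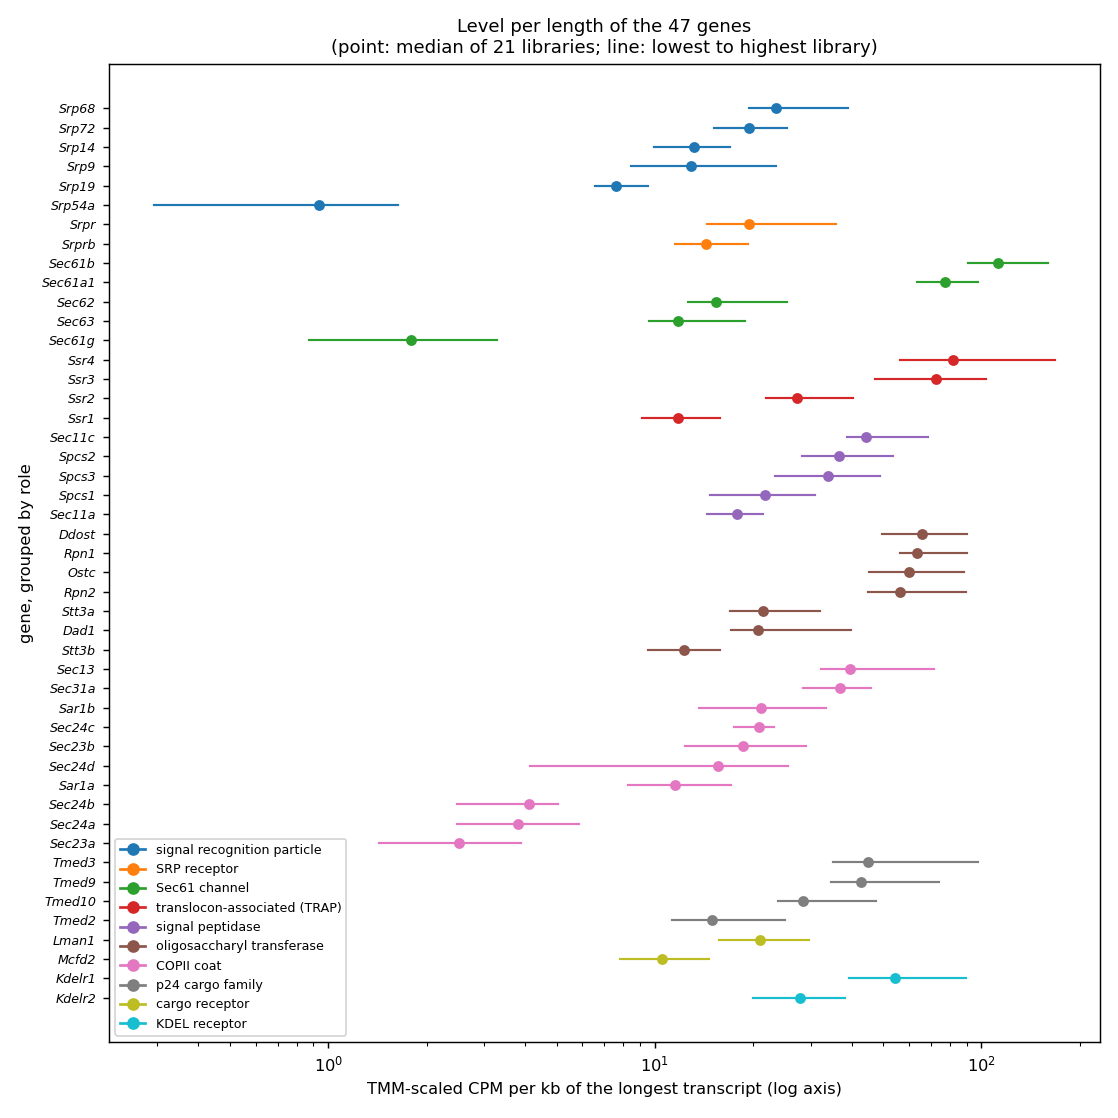
Level per length of the 47 genes, grouped by role, as TMM-scaled CPM per kb of the longest transcript on a log axis, where points are medians of 21 libraries and lines run from the lowest to the highest library. Sec61b sits highest at 112 CPM per kb and Srp54a lowest at 0.938.

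Secretory output was taken as the share of all counts on the 28 Defa genes, and capacity as the share of the remaining counts on the 47 genes. The order of the 6 groups by output was not their order by capacity. In SPF mice on Milli-Q water the Defa share was 31.2, 24.1 and 33.5% and the 47 genes held 0.723, 0.895 and 0.788% of non-Defa counts. On zinc water SPF libraries had Defa shares of 36.4, 33.8 and 35.0%, all above those on Milli-Q water, and shares of the 47 genes of 0.785, 0.833 and 0.771%, which overlapped them.

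In antibiotics-treated mice the Defa shares were 25.1, 32.8, 31.8 and 27.3% on Milli-Q and 28.7, 26.4, 29.9 and 25.3% on zinc water, and these ranges overlapped. The 47 genes held 0.861, 0.766, 0.772 and 0.764% of non-Defa counts on Milli-Q and 0.934, 0.951, 0.856 and 0.815% on zinc water, the highest group mean of the study at 0.889 ± 0.0645% (SD, n = 4). The 2 waters overlapped on this share, through antibiotics Milli-Q replicate 1 and antibiotics zinc replicates 3 and 4.

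Germ-free libraries combined the highest output with the lowest share of the 47 genes among non-Defa counts. Their Defa shares were 44.0, 44.5 and 42.8% on Milli-Q and 41.6, 41.6, 39.3 and 42.0% on zinc water, all above those of the other 4 groups. The 47 genes held 0.644, 0.619 and 0.666% of non-Defa counts on Milli-Q and 0.606, 0.699, 0.678 and 0.686% on zinc water, all below those of the other 4 groups. Non-Defa counts still held 10 other granule products, at 18.2 to 22.8% of all counts in germ-free and 13.1 to 21.4% in other libraries. A share without these products was not computed, so the lower share is not shown to be a lower capacity. Per 1000 Defa counts there were 8.27 ± 0.589 (SD, n = 3) and 9.56 ± 0.817 (SD, n = 4) counts of the 47 genes in germ-free mice on Milli-Q and zinc water. In the other groups this ratio lay between 14.8 ± 1.36 (SD, n = 3) in SPF mice on zinc and 23.5 ± 2.68 (SD, n = 4) in antibiotics-treated mice on zinc. The ratio falls wherever Defa counts rise, even at an unchanged level of the 47 genes.

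The direction for germ-free mice turned with the scale. Summed TMM-scaled CPM of the 47 genes, which follow the level of the typical gene, were 5596 ± 153 (SD, n = 3) and 5650.3 ± 852 (SD, n = 4) in germ-free mice on Milli-Q and zinc water. They were 4501 ± 439 and 4761 ± 238 (SD, n = 3) in SPF mice, and 4219 ± 111 and 5431 ± 477 (SD, n = 4) in antibiotics-treated mice, on the 2 waters in turn. On this scale every germ-free Milli-Q library lay above every SPF and antibiotics Milli-Q library, whereas as shares they lay below. The TMM factors of germ-free libraries were 0.52 to 0.83 and those of the others 1.00 to 1.49, which is how the 2 scales part. Antibiotics zinc libraries, with sums of 6141, 5273, 5148 and 5161 CPM, lay above all 4 antibiotics Milli-Q libraries at 4338, 4079, 4267 and 4193 CPM.

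**Figure D2:**
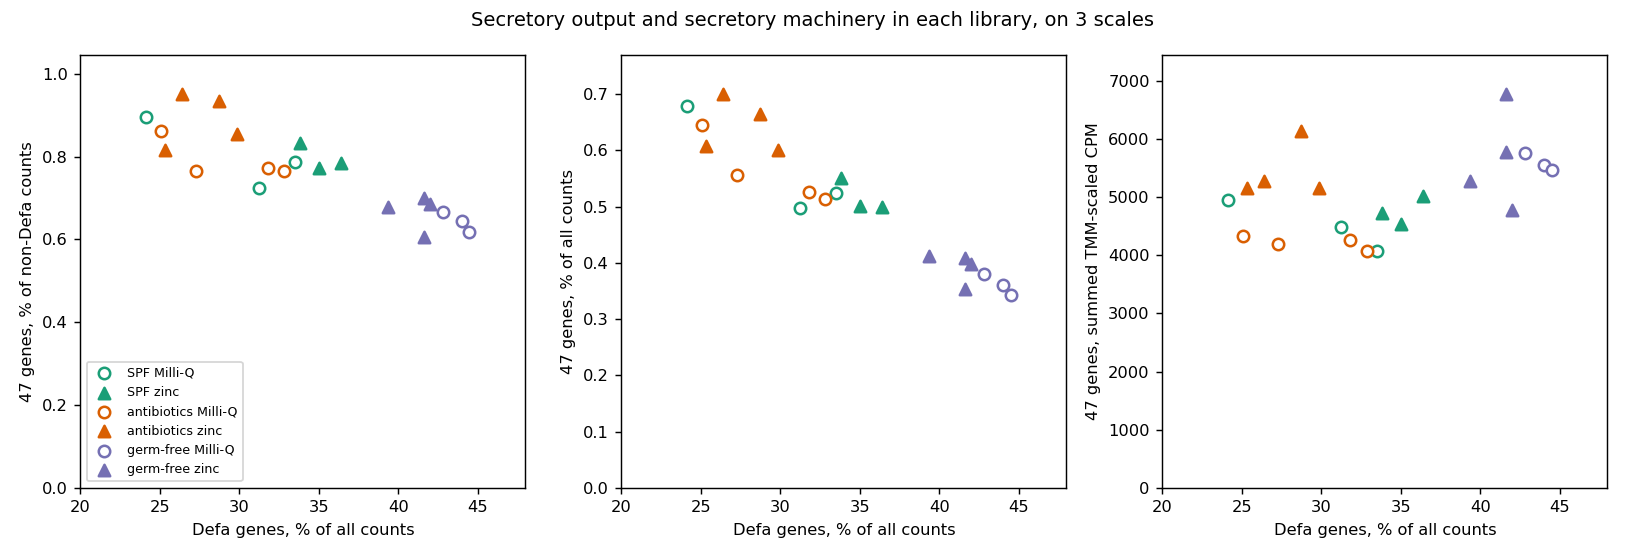
Share of all counts on the Defa genes (x axis, percent) against the 47 genes in each of 21 libraries, as percent of non-Defa counts (left), percent of all counts (middle) and summed TMM-scaled CPM (right), by microbiome context and water. The 7 germ-free libraries lie at the right in each panel, below the other libraries on both shares, whereas in summed CPM the 3 on Milli-Q water lie above the other Milli-Q libraries.

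Within groups, each gene was also fitted against the log2 ratio of Defa to non-Defa counts of its library. The slope is the log2 change of a gene per log2 unit of that ratio. No member passed the threshold by edgeR's quasi-likelihood test (adjusted p under 0.05), where 0.0612% of all 13070 genes tested did. At an unadjusted p under 0.05 there were 0 members, where 6.95% of all genes passed, and limma-voom called 0. The median slope of the 47 genes was -0.15 and that of all genes -0.0048, and 11 members had a positive slope. For the 20 tested Defa genes, which make up the ratio, the median slope was 1.01. Ssr4 had a slope of 0.17 ± 0.29 (SE, 95% interval -0.42 to 0.77) and Sec24d of -0.64 ± 0.45 (-1.58 to 0.30). Both intervals lie below 1, the slope of a gene in proportion to the ratio. Both also hold 0, so for these genes weaker following of output cannot be told from none.

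The other 8 members described in every comparison had slopes from -0.35 for Kdelr2 to 0.04 for Tmed9. Without SPF Milli-Q replicate 2, the library with the lowest Defa share, the median slope of the members was 0.02. When output was taken from 10 other granule products in place of the Defa genes, the median slope was 0.20, and again 0 members were called. Leaving out the group coefficients, so that differences between groups entered the slope, gave 14 members called, all positive, of 2558 genes called.

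In antibiotics-treated mice 25 of the 47 genes rose with zinc and 0 fell, where 10.2% of all genes tested rose and 11.5% fell. The median log2 fold change of the members was 0.38, that of all genes 0.01, and 46 members were positive, while on library totals these medians were 0.21 and -0.15. For 27 members the lowest zinc library exceeded the highest Milli-Q library, where 13.9% of all genes did so. Genes called were found in 9 of the 10 roles.

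The largest rise among members was that of Sec24d, a COPII subunit that selects cargo (ENSMUSG00000039234, chr3:123061103-123159291 on GRCm39). Sec24d stood at 47.1, 37.1, 65.3 and 59.1 CPM on Milli-Q and at 95.2, 86.6, 90.8 and 72.0 CPM on zinc water, without overlap. Its log2 fold change was 0.72 ± 0.25 (SE, adjusted p = 0.0386, edgeR), a call lost when any of antibiotics Milli-Q replicates 1 and 2 or zinc replicates 1, 2 and 3 was left out. Sar1b, the GTPase that starts coat assembly (ENSMUSG00000020386, chr11:51646771-51682780), stood at 34.6, 30.6, 36.7 and 41.2 CPM on Milli-Q and at 59.2, 49.3, 62.5 and 64.7 CPM on zinc water. The groups did not overlap, and the log2 fold change was 0.72 ± 0.18 (SE, adjusted p = 0.00982, edgeR). Sar1a, a close paralog that may share reads with it, rose by 0.36 on the log2 scale.

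At the channel, Ssr3, the γ subunit of TRAP (ENSMUSG00000027828, chr3:65287076-65300044), stood at 175, 152, 178 and 175 CPM on Milli-Q and 320.2, 243, 266 and 256 CPM on zinc water. All zinc libraries were higher, with a log2 fold change of 0.68 ± 0.16 (SE, adjusted p = 0.00543, edgeR). Spcs3, a subunit of signal peptidase (ENSMUSG00000054408, chr8:54973464-54983053), stood at 91.8, 96.8, 103 and 87.8 CPM on Milli-Q and 167, 135, 148 and 143 CPM on zinc water. Again no library overlapped, and the log2 fold change was 0.65 ± 0.13 (SE, adjusted p = 0.0026, edgeR). The calls of Sar1b, Ssr3 and Spcs3 held in all 10 other settings and in each of the 8 fits without a library.

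By role, 2 of 6 signal recognition particle genes rose, 1 of 2 receptor genes, 2 of 5 channel genes, 3 of 4 TRAP genes and 4 of 5 signal peptidase genes. Further along, 5 of 7 oligosaccharyl transferase genes rose, 5 of 10 COPII genes, 1 of 4 p24 genes, both cargo receptor genes and 0 of 2 KDEL receptors. Srp72, which with Srp68 forms the core of the particle, was at 63.8, 63.4, 71.6 and 63.0 CPM on Milli-Q and 93.5, 92.0, 87.0 and 82.6 CPM on zinc water and rose by 0.44 (log2, adjusted p = 0.00826, edgeR). The zinc libraries were all above, but the call was lost on library totals and with offsets for GC content and length. In the transferase, Ddost, a non-catalytic subunit, rose by 0.39 (adjusted p = 0.0218, edgeR). That call needed Milli-Q replicates 2 and 3 and zinc replicate 1. It was also lost on library totals and without a filter on low counts.

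Sec61b rose by 0.36 (log2, adjusted p = 0.0247, edgeR), a call that needed Milli-Q replicates 1 and 2 and zinc replicates 1 and 4. Lman1, the lectin-like receptor that carries glycoproteins to the Golgi with Mcfd2, rose by 0.40 (adjusted p = 0.037, edgeR), a call lost without any of antibiotics Milli-Q replicates 1, 2 and 4 or zinc replicates 1, 2 and 3. The calls of Sec61b and Lman1 were also lost on library totals, without a filter on low counts and with offsets for GC content and length. Not called were Ssr4 at 0.40 ± 0.15, Sec61a1 at 0.27 ± 0.11, Kdelr2 at 0.27 ± 0.14, Tmed9 at 0.17 ± 0.12 and Sec11c, a catalytic signal peptidase subunit, at 0.14 ± 0.14 (log2 ± SE).

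Of the Defa genes 2 of 20 were called higher, with a median log2 fold change of 0.10. Immune cell markers took 0.0311 to 0.0392% of counts in the antibiotics Milli-Q libraries and 0.000989 to 0.0232% on zinc water, with Cd3e, Cd8a, Cd79a, Jchain and Itgax at 0 in the zinc libraries, and their part in the result was not tested. Genes with at least 1 count numbered 17468 to 18072 in the antibiotics Milli-Q libraries and 15870 to 16558 on zinc water, without overlap. The part of this gap was not tested either. Fold changes also went with the GC content of the transcripts, with Spearman's rho of -0.43 over the 47 members and -0.39 over 13045 genes, as a description of genes that share libraries. With offsets for GC content and length 16 members were called, 14 of them among the 25, and on library totals 3, where 1.15% of all genes were higher. Leaving out antibiotics Milli-Q replicate 2 or antibiotics zinc replicate 1 left 8 members called, and leaving out antibiotics Milli-Q replicate 3 left 16.

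**Figure D3:**
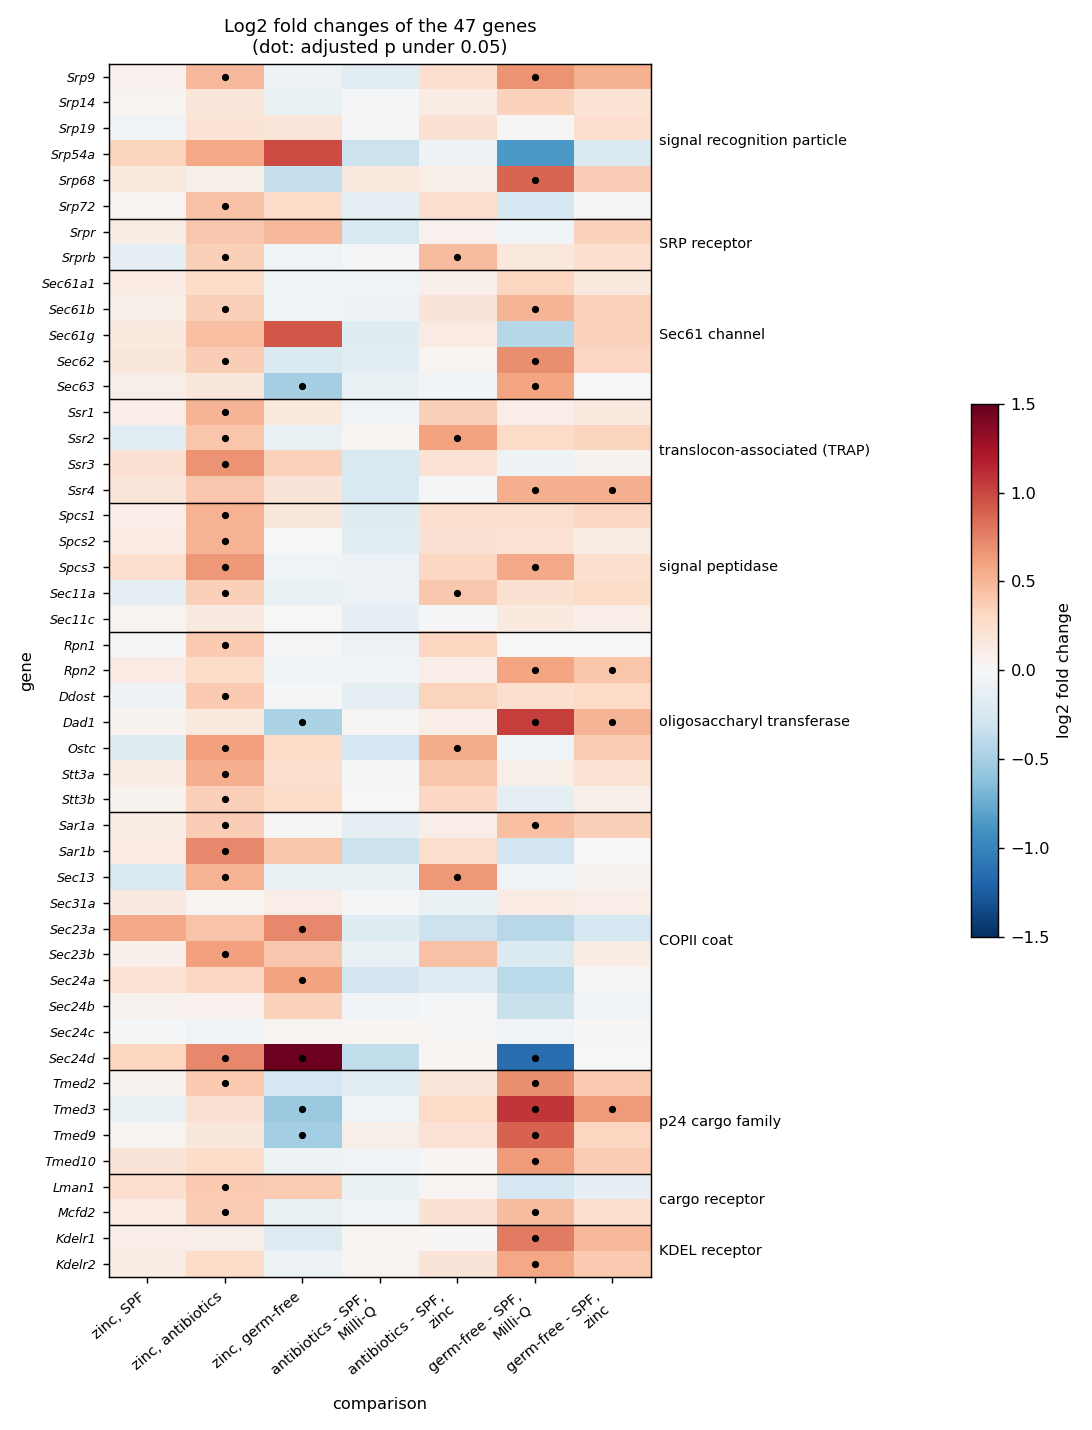
Log2 fold changes of the 47 genes (rows, by role) in 7 comparisons of a pair of groups (columns), with a dot where the adjusted p was under 0.05 by edgeR. The zinc column of antibiotics-treated mice holds 25 dots, all for higher levels. The germ-free columns are TMM-scaled, and on library totals 36 members were called lower on Milli-Q and 24 on zinc water, where 70.9% and 48% of all genes were.

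In SPF mice 0 members passed the threshold with zinc by edgeR, where 0.138% of all genes did, and 1 had an unadjusted p under 0.05, where 5.09% of all genes did. DESeq2 and limma-voom called 0. The median log2 fold change of the members was 0.10, with 37 of 47 positive and a range from -0.23 to 0.57, while on library totals the median was -0.11 against -0.23 for all genes. The highest was Sec23a, a COPII inner-coat subunit, at 14.0, 15.6 and 12.6 CPM on Milli-Q and 21.6, 20.1 and 20.9 CPM on zinc water. The libraries of the 2 waters did not overlap, and the log2 difference was 0.57 ± 0.18 (SE, adjusted p = 0.413, edgeR), which missed the threshold. It was among 5 members whose zinc libraries were all higher, where 6.70% of all genes were.

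Members described in every comparison lay between -0.08 for Ddost and 0.32 for Sec24d (log2) in SPF mice. Sec24d was at 57.4, 93.8 and 50.6 CPM on Milli-Q and 83.3, 94.4 and 74.8 CPM on zinc water, and the groups overlapped. Its 95% interval was -0.26 to 0.91, which holds both no difference and a difference as large as that seen with antibiotics. For Srp72 (0.04 ± 0.13), Sec61a1 (0.13 ± 0.13), Sec61b (0.09 ± 0.13) and Sec11c (0.04 ± 0.16) the difference was at or below its standard error. Ssr4, Tmed9, Lman1 and Kdelr2 stood at 0.19, 0.05, 0.25 and 0.11. Genes with at least 1 count numbered 16445 to 16707 in the SPF zinc libraries and 16876 to 17814 on Milli-Q water, without overlap. Total counts were 12052705 to 12317452 and 13246229 to 16051708 on these waters. The part of these gaps was not tested. Enterocyte markers took 0.109 to 0.178% of counts on zinc and 0.0470 to 0.0891% on Milli-Q water in these mice. Goblet, enteroendocrine, and stem and cycling markers were lower in every zinc library, at 0.938 to 0.996% against 1.04 to 1.57%, 0.00528 to 0.00907% against 0.0115 to 0.0251% and 0.383 to 0.411% against 0.430 to 0.606%, and the part of these markers was not tested.

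In germ-free mice few members were called with zinc. Of the 47 genes 3 rose and 4 fell, which is 6.38% and 8.51% and near the 5.89% and 5.47% of all genes that rose and fell, and the median of the members was 0.00. The libraries of the 2 waters did not overlap for 2 members higher and 5 lower with zinc, where 5.74% and 8.78% of all genes were so placed. The 3 that rose, Sec24d, Sec23a and Sec24a, all encode the COPII inner coat, and of the 10 COPII genes 9 were positive. The 4 that fell were the p24 proteins Tmed3 and Tmed9, the channel partner Sec63 and the transferase subunit Dad1. With only the germ-free libraries in the fit, in place of all 6 groups, 0 members were called.

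Sec24d was at 32.5, 19.2 and 39.5 CPM on Milli-Q and 119, 101, 74.9 and 44.3 CPM on zinc water. Every zinc library was higher, with a log2 fold change of 1.47 ± 0.28 (SE, adjusted p = 0.00923, edgeR). Sec24d was the only member called in more than 1 context, in antibiotics-treated and germ-free mice, and its germ-free call rested on Milli-Q replicate 2, ending when that library was dropped. Sec23a was at 13.0, 8.59 and 10.1 CPM on Milli-Q and 15.1, 15.6, 23.5 and 15.4 CPM on zinc water and rose by 0.73 ± 0.18 (log2, SE, adjusted p = 0.0189, edgeR). No library overlapped. Sec24a rose by 0.60 ± 0.18 (adjusted p = 0.0358), with overlap through germ-free zinc replicate 4 at 20.9 CPM.

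Tmed3 was at 207, 249.9 and 235 CPM on Milli-Q and 183, 169, 126 and 150.2 CPM on zinc water. Its zinc libraries were all lower, with a log2 fold change of -0.55 ± 0.15 (SE, adjusted p = 0.0242, edgeR). Tmed9, which cycles between ER and Golgi with Tmed3 and other p24 proteins, was at 144, 155 and 163 CPM on Milli-Q and 122, 103, 93.7 and 114 CPM on zinc water. It too was lower in every zinc library, with a log2 fold change of -0.51 ± 0.13 (SE, adjusted p = 0.0194, edgeR). Sec63, a membrane partner of the Sec61 channel, was at 115, 111 and 93.9 CPM on Milli-Q and 68.2, 79.9, 71.6 and 81.4 CPM on zinc water, a log2 fold change of -0.50 ± 0.12 (adjusted p = 0.0141). Dad1, a small shared subunit of the transferase, was at 147, 146 and 135 CPM on Milli-Q and 115, 90.2, 87.1 and 119 CPM on zinc water, a log2 fold change of -0.47 ± 0.13 (adjusted p = 0.0229). Neither Sec63 nor Dad1 overlapped between waters.

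All 4 falls kept their sign on library totals but lost their calls. With Milli-Q replicate 2 of the germ-free mice left out 0 members passed, and with zinc replicate 3 left out only Sec24d did. Leaving out Milli-Q replicate 3 ended the calls of Tmed3, Tmed9, Sec23a and Sec24a (3 members passed), and leaving out zinc replicate 2 those of Tmed9, Dad1 and Sec24a (4 passed). Sec24a also missed the threshold when zinc replicate 1 was dropped. Dropping zinc replicate 4 had the opposite effect, with 17 members past the threshold. That library stood apart on the first principal component of all genes, at -15.8 against 33.1 to 79.4 for the other 3 on zinc, and its enterocyte markers took 0.173% of counts against 0.0323 to 0.0827% in those and 0.0314 to 0.0721% on Milli-Q water. The part of these markers was not tested.

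Of the members described in every comparison and not called, Srp72 stood at 0.27 ± 0.12, Lman1 at 0.38 ± 0.15 and Ssr4 at 0.19 ± 0.16 (log2 ± SE). Sec61a1, Sec61b, Sec11c, Ddost and Kdelr2 lay between -0.07 and 0.00. Defa genes had a median of -0.13 with 0 of 20 called. The fold change of Srp54a was one of the largest in size but was not called, and its counts were as low as 9 in a library.

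**Figure D4:**
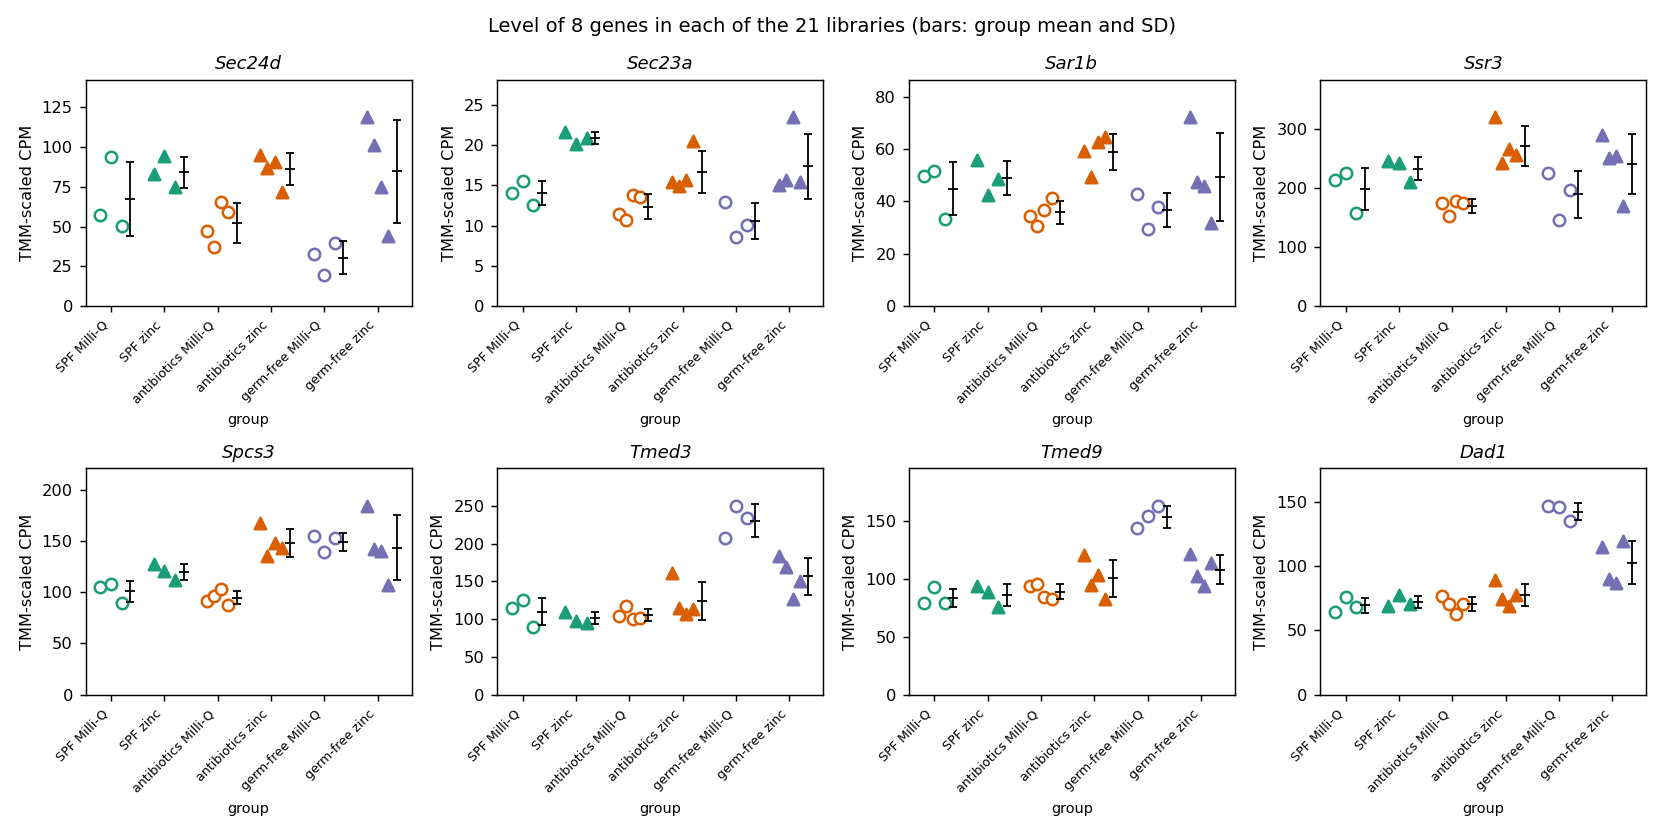
TMM-scaled CPM of 8 members in each of 21 libraries, by group (x axis), with points for libraries and black bars for the group mean and SD. Sec24d is above its Milli-Q level in all zinc libraries of antibiotics-treated and germ-free mice, and Tmed3, Tmed9 and Dad1 are highest in germ-free mice on Milli-Q water on this scale, a direction against SPF mice that turned on library totals for Tmed9.

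Averaged over the 3 contexts, zinc raised 17 members and lowered 0, where 10.7% of all genes rose and 11.2% fell. The median log2 fold change was 0.13, and 40 of 47 members were positive. Sec24d led at 0.84 ± 0.16 (SE, adjusted p = 0.00184, edgeR), followed among genes of at least 5 CPM by Sec23a at 0.57 ± 0.10 (adjusted p = 0.00128). These calls held in all 9 other settings and without each of the 21 libraries. Sar1b and Ssr3 rose by 0.42 and 0.42, and the call of Sar1b was lost on library totals.

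By role, the averaged zinc effect reached 5 of 10 COPII genes, 3 of 4 TRAP genes, 2 of 6 signal recognition particle genes and 0 of 4 p24 genes. Lman1 rose by 0.34, Ssr4 by 0.26 and Srp72 by 0.25, while Sec61a1 at 0.12, Sec61b at 0.13, Ddost at 0.10, Kdelr2 at 0.10, Sec11c at 0.06 and Tmed9 at -0.10 were not called. The calls of Lman1, Ssr4 and Srp72 were lost on library totals, that of Srp72 also with GC and length offsets, and that of Ssr4 in 3 of 9 other settings and 16 of 21 fits without a library. The count fell to 12 without SPF zinc replicate 1, to 10 without germ-free Milli-Q replicate 2, and to 3 on library totals, where 2.39% of all genes were higher. With GC and length offsets it was 10, of which 6 were among the 17.

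Since 17 members rose and 0 fell in the averaged comparison, promoters of the members were searched for motifs of the unfolded protein response. That response raises ER capacity through transcription factors which bind the motifs ERSE (CCAAT and CCACG with 9 bases between them), ERSE-II (ATTGG and CCACG with 1 base between them) and UPRE (TGACGTG). RefSeq windows from 250 bases before to 50 after the start, on GRCm38.p6, were matched for 37 of the 47 members and searched on both strands. ERSE was found in 0 of 37 windows and in 0.137% of all 27025 genes, and ERSE-II in 0 of 37 and in 0.0444%. UPRE was found in 3 of 37 windows, 8.11%, and in 2.22% of all genes, and the CCAAT box, which is part of ERSE, in 48.6% and 41.1%. A match describes letters and not a bound site. UPRE was in 1 of 20 windows of members called with zinc in antibiotics-treated mice and in 2 of 17 windows of members not called. The genes that hold it, Sec24d, Sec23a and Srpr, the receptor subunit that binds the particle, were among the 17 called in the averaged comparison. Windows of called and uncalled members were not counted for that comparison, so no link between UPRE and zinc is shown. The sites of these genes are shown as the only matches. The 150 bases before the start of Sec24d (chr3:123267346-123267495, plus strand) and Srpr (chr9:35211053-35211202, plus strand) are printed with UPRE in capitals, its first base 26 and 13 bases before the start. The match in Sec23a (chr12:59012000-59012016, minus strand), whose first base lies 6 bases after the start, is printed with 5 bases on each side.
Sec24d: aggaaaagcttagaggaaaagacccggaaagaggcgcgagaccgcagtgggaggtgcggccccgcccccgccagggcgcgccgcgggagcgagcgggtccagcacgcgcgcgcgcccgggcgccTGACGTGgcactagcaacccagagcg
Srpr: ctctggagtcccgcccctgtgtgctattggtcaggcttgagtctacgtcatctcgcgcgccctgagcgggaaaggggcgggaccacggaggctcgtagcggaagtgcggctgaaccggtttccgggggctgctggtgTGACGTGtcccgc
Sec23a: cccttTGACGTGgcaga

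Whether the zinc response of the members differed between contexts was tested directly. For antibiotics against SPF, 0 members passed by edgeR, 10 did at an unadjusted p under 0.05, and DESeq2 called 1 and limma-voom 3. For germ-free against SPF the counts were 0 by edgeR, 5 unadjusted, 0 by DESeq2 and 3 by limma-voom. For germ-free against antibiotics they were 0 by edgeR, 18 unadjusted, 6 by DESeq2 and 12 by limma-voom. Of all genes tested, 0%, 0% and 0.207% were called in these 3 contrasts, and 18.5%, 13.3% and 16.4% had an unadjusted p under 0.05. So the larger number of members called with antibiotics is not shown to be a difference between contexts at this threshold.

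The members nearest to it were Sec63, at -0.67 ± 0.16 (log2, SE, adjusted p = 0.0628, edgeR), and Tmed3, at -0.79 ± 0.21 (adjusted p = 0.0746), both with the lower zinc effect in germ-free mice. Between germ-free and antibiotics the median difference of the members was -0.34, and 9 of 47 were positive, 6 of them in the COPII coat. Between antibiotics and SPF the median was 0.27, with Sec13 nearest the threshold at 0.75 ± 0.21 (adjusted p = 0.116). The median between germ-free and SPF was 0.04. The 10 members described in every comparison ran from 0.10 for Sec11c to 0.47 for Ddost between antibiotics and SPF. They ran from -0.56 for Tmed9 to 1.14 for Sec24d between germ-free and SPF, and from -0.69 to 0.74, for the same genes, between germ-free and antibiotics.

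Germ-free mice were compared with SPF mice on Milli-Q water. On the TMM scale 17 members were higher in germ-free mice and 1 lower, where 12.7% of all genes were higher and 11.6% lower, but on library totals 0 were higher and 36 lower, among them all 10 COPII genes, where 70.9% of all genes were lower. Library totals moved the median of all genes from -0.03 to -0.99 and that of the members from 0.22 to -0.74. The members lay above the median gene on the TMM scale. A change of scale shifts all genes of a comparison almost alike, so their place above it on library totals is no separate evidence. For 20 members every germ-free library was higher and for 5 lower on the TMM scale, where 19.3% and 18.8% of all genes were.

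All 4 p24 genes and both KDEL receptors were called higher in germ-free mice on the TMM scale, with 3 of 5 channel genes, 2 of 6 signal recognition particle genes and 2 of 7 transferase genes, whereas library totals called 0 genes of these roles higher. On library totals 3 of 5 channel, 4 of 6 signal recognition particle and 6 of 7 transferase genes were lower, and 0 p24 genes or KDEL receptors. Tmed3 was at 114, 125 and 89.9 CPM in SPF and 207, 249.9 and 235 CPM in germ-free mice, a log2 difference of 1.07 ± 0.16 (SE, adjusted p = 0.000109, edgeR), which kept its sign on library totals without the call. Dad1 was at 64.6, 76.0 and 68.1 CPM in SPF and 147, 146 and 135 CPM in germ-free mice, a difference of 1.03 ± 0.14 (adjusted p = 2.48e-05), also kept in sign on library totals without the call. For both genes the lowest germ-free library lay above the highest SPF library on the TMM scale.

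Tmed9 was at 79.0, 93.1 and 79.0 CPM in SPF and 144, 155 and 163 CPM in germ-free mice, a log2 difference of 0.88 ± 0.14 (SE, adjusted p = 0.000172, edgeR) that turned to -0.09 on library totals. Srp68, the partner of Srp72 in the particle, was at 65.0, 68.2 and 67.1 CPM in SPF and 107, 130.4 and 129 CPM in germ-free mice, a difference of 0.87 ± 0.13 (adjusted p = 7.15e-05) that turned to -0.10 on library totals. Srp72 itself was at -0.27 ± 0.13 and not called, so these partners stood on opposite sides of 0 on the TMM scale, though not on library totals. The Milli-Q libraries of germ-free and SPF mice did not overlap for Tmed9 or Srp68.

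Sec24d was the member called lower, at 57.4, 93.8 and 50.6 CPM in SPF and 32.5, 19.2 and 39.5 CPM in germ-free mice. No library overlapped, the log2 difference was -1.14 ± 0.29 (SE, adjusted p = 0.00732, edgeR), it was lower on every scale, and the call ended when Milli-Q replicate 2 of the germ-free mice was dropped. Of the COPII coat 2 of 10 genes were positive on the TMM scale and 0 on library totals. This comparison and the zinc comparison in germ-free mice share the 3 germ-free Milli-Q libraries. Side by side, Sec24d was at -1.14 and 1.47, Tmed3 at 1.07 and -0.55, Tmed9 at 0.88 and -0.51, and Dad1 at 1.03 and -0.47, and the shared libraries enter the 2 differences with opposite signs.

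Among the members described in every comparison, Sec61b at 0.51, Ssr4 at 0.55 and Kdelr2 at 0.58 were also called higher on the TMM scale, and turned to -0.45, -0.40 and -0.39 on library totals. The call of Kdelr2 ended when Milli-Q replicate 2 of the germ-free or replicate 3 of the SPF mice was dropped, and that of Ssr4 in 5 of 6 fits without a library. Sec61a1 at 0.32, Ddost at 0.24, Sec11c at 0.14 and Lman1 at -0.25 were not called. Of 20 Defa genes 18 were higher with a median of 1.47, above the difference of every member, and on library totals 12 were higher and 1 lower with a median of 0.52. Other cell markers separated these groups as well. Stem and cycling markers took 0.153 to 0.216% of counts in germ-free and 0.430 to 0.606% in SPF mice on Milli-Q water, enteroendocrine markers 0.00159 to 0.00228% and 0.0115 to 0.0251%, and tuft markers 0.00841 to 0.00904% and 0.0205 to 0.0315%. On library totals 7 of 8, 8 of 8 and 5 of 6 of these markers were called lower, and Paneth markers took 39.1 to 42.8% and 27.7 to 35.2%. Mitochondrial genes took 0.599 to 1.21% and 1.89 to 2.16% of counts. Genes with at least 1 count numbered 15098 to 15536 in germ-free and 16876 to 17814 in SPF libraries on Milli-Q water. The part of these values in the result was not tested.

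On zinc water the TMM scale called 4 members higher in germ-free mice than in SPF mice and 0 lower, where 3.47% of all genes were higher and 2.38% lower, while on library totals 24 were lower, where 48% of all genes were. The 4 were Tmed3 at 0.63 ± 0.15 (adjusted p = 0.0181, edgeR), Ssr4 at 0.55 ± 0.16, Dad1 at 0.51 ± 0.13 and Rpn2, a transferase subunit, at 0.42 ± 0.12, and all 4 turned negative on library totals. Tmed3 was at 110.0, 98.1 and 95.6 CPM in SPF and 183, 169, 126 and 150.2 CPM in germ-free mice. The germ-free libraries lay above the SPF libraries, with a narrower gap than on Milli-Q water.

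Sec24d was at 83.3, 94.4 and 74.8 CPM in SPF and 119, 101, 74.9 and 44.3 CPM in germ-free mice on zinc, with overlap and a difference of 0.01 ± 0.27. Srp72, Sec61a1, Sec61b, Sec11c, Ddost, Tmed9, Lman1 and Kdelr2 lay between -0.12 and 0.39 and were not called. The count rested on single libraries. It fell to 0 when replicate 1 of the germ-free or replicate 2 or 3 of the SPF mice was dropped, to 1 with replicate 2 of the germ-free or replicate 1 of the SPF mice dropped, and rose to 12 with replicate 4 of the germ-free mice dropped. Fitted on these 2 groups only, 0 members were called. Tuft markers took 0.00693 to 0.00954% of counts in germ-free and 0.0202 to 0.0299% in SPF mice on zinc water, stem and cycling markers 0.194 to 0.352% and 0.383 to 0.411%, enteroendocrine markers 0.00157 to 0.00395% and 0.00528 to 0.00907%, and immune markers 0.00132 to 0.00240% and 0.00343 to 0.00627%. On library totals 6 of 6 tuft, 7 of 8 stem and cycling and 4 of 8 enteroendocrine markers were called lower, and their part was not tested. Genes with at least 1 count numbered 13747 to 16180 in germ-free and 16445 to 16707 in SPF libraries on zinc water, a gap also not tested.

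On Milli-Q water no member was shown to differ between antibiotics-treated and SPF mice. By edgeR 0 of 47 were called, where 0.199% of all genes were, and 0 had an unadjusted p under 0.05, where 8.13% did. DESeq2 and limma-voom called 0. Differences ran from -0.37 for Sec24d (95% interval -0.91 to 0.18) to 0.14 for Srp68 (-0.10 to 0.39), with a median of -0.09 and 8 members positive. The other members described in every comparison lay between -0.23 for Ssr4 and 0.09 for Tmed9. Immune markers took 0.0311 to 0.0392% of counts in antibiotics-treated and 0.00240 to 0.00820% in SPF mice on Milli-Q water, and their part was not tested.

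On zinc water 5 members were higher in antibiotics-treated than in SPF mice and 0 lower, where 4.76% of all genes were higher and 4.21% lower. Sec13, of the outer coat, was at 79.6, 64.1 and 76.1 CPM in SPF and 142, 98.3, 99.4 and 121 CPM in antibiotics-treated mice. All antibiotics libraries were higher, with a log2 difference of 0.65 ± 0.15 (SE, adjusted p = 0.0116, edgeR), lost without SPF zinc replicate 2. Ssr2, the β subunit of TRAP, was at 119.5, 115 and 115 CPM in SPF and 211, 172, 152 and 171 CPM in antibiotics-treated mice, a difference of 0.60 ± 0.13 (adjusted p = 0.00887) that held without each library. Its groups did not overlap.

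Ostc at 0.55 ± 0.17, Srprb, the membrane anchor of the receptor, at 0.48 ± 0.13 and Sec11a, a catalytic peptidase subunit, at 0.41 ± 0.11 were the other 3 called. Of these, Ostc lost its call in 6 of 7 fits without a library and Srprb without antibiotics zinc replicate 1 or SPF zinc replicates 2 or 3. The members described in every comparison lay between -0.02 for Sec11c and 0.33 for Ddost. Left out in turn, SPF zinc replicate 1 left 4 members called, SPF zinc replicate 2 left 1, SPF zinc replicate 3 and antibiotics zinc replicate 1 left 2, and antibiotics zinc replicate 4 left 3. In this comparison 4 of 20 Defa genes were lower, with a median of -0.40, so output and capacity were on opposite sides of 0. Enterocyte markers took 0.0448 to 0.0699% of counts in antibiotics-treated and 0.109 to 0.178% in SPF mice on zinc water, with 8 of 10 called lower on library totals, and goblet markers 1.12 to 1.56% and 0.938 to 0.996%, with 4 of 8 called higher. Their part in the result was not tested.

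**Figure D5:**
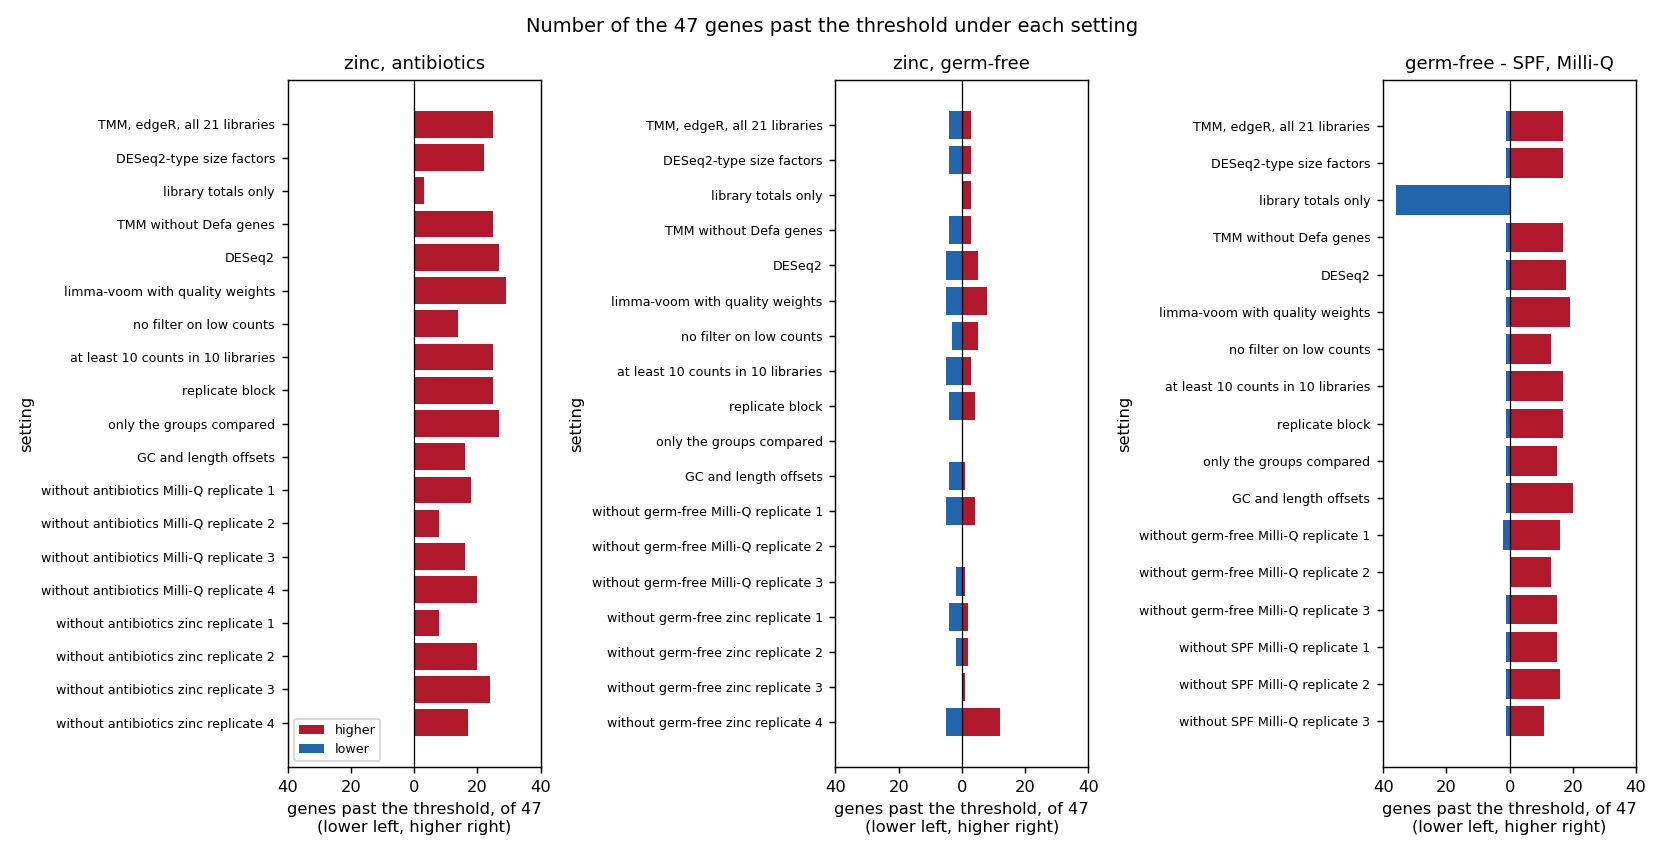
Number of the 47 genes past the threshold (x axis, lower to the left and higher to the right) under each setting (rows) in 3 comparisons. With antibiotics, zinc gave 3 to 29 members higher and 0 lower, and in germ-free against SPF mice the bar for library totals points the other way, with 36 lower, where 70.9% of all genes were.

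Other secretory genes, from 5 further lists, were counted the same way. Of all genes tested, 10.2% rose and 11.5% fell with zinc in antibiotics-treated mice. With zinc in antibiotics-treated mice 14 of 32 other ER-to-Golgi carrier genes rose and 1 fell, with Tmed5, a further p24 protein, at 0.72 and Cnih1, a cargo receptor for growth factors, at 0.68. Of the COPI coat, which runs from Golgi back to ER, 7 of 14 genes rose, led by Copb1 at 0.78 and Arf4 at 0.69. Other ER entry genes gave 9 of 20 higher and 2 lower, with Sec61a2, a paralog of the pore, at -0.80 and Srp54c at 0.68. Other N-glycosylation genes gave 3 of 26 higher and 1 lower, with Magt1 at 0.56 and the chaperone Canx at 0.50, and 1 of 10 secretory regulators rose, Atf6, a sensor of ER stress, at 0.50. On library totals 1 gene of these 5 lists was called higher, where 1.15% of all genes were, and 4 were called lower.

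Zinc in germ-free mice gave fewer calls in these lists, as it did over all genes, of which 5.89% rose and 5.47% fell. Carrier genes had 2 of 32 higher and 1 lower, COPI genes 1 of 14 higher and 3 lower, and N-glycosylation genes 0 of 26 higher and 2 lower. Copb1 stood at 0.76 and Copz2, a ζ subunit of COPI, at -0.75, while Krtcap2, of the oligosaccharyl transferase, stood at -0.60. Other ER entry genes had 0 of 20 higher and 1 lower, and regulators 2 of 10 higher, Creb3l2 at 0.67 and Ern1 at 0.64. In SPF mice 0 genes of these 5 lists were called with zinc, where 0.138% of all genes were.

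Averaged over contexts, zinc raised 11 of 32 carrier genes and lowered 2. It raised 5 of 14 COPI genes and 3 of 20 other ER entry genes. Of N-glycosylation genes it raised 3 of 26 and lowered 2, and of regulators it raised 2 of 10. Of all genes, 10.7% rose and 11.2% fell on this average. In germ-free against SPF mice on Milli-Q water, 8 of 32 carrier, 7 of 26 N-glycosylation, 3 of 14 COPI, 2 of 20 ER entry and 2 of 10 regulator genes were higher on the TMM scale and 0 lower, where 12.7% and 11.6% of all genes were. On library totals 25, 21, 11, 18 and 7 genes of these lists were lower, where 70.9% of all genes were, and 1 COPI gene was higher. Among those higher on the TMM scale were Surf4, a cargo receptor, at 0.93, Krtcap2 at 1.17 and Bhlha15, the secretory transcription factor Mist1, at 1.07. Of the 10 other granule products, 8 were higher and 1 lower in that comparison, with Pnliprp2 at 2.00, and 6 higher and 2 lower on library totals. On zinc water the 5 lists gave 2, 2, 0, 1 and 0 genes higher in the same order on the TMM scale, where 3.47% of all genes were. On library totals they gave 15, 14, 6, 10 and 5 lower, where 48% of all genes were. Antibiotics against SPF mice on zinc water gave 3 of 20 other ER entry genes higher, with Emc2 at 0.88 and the chaperone Hspa5 at 0.69, and 2 of 32 carrier genes higher, Cnih1 at 0.50 and Bcap31 at 0.46. Called lower were 1 carrier gene, Sec16b at -0.58, and 1 regulator, Ern1 at -0.67, and 0 COPI or N-glycosylation genes were called. Of all genes, 4.76% were higher and 4.21% lower in that comparison.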

How the data were processed

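Paneth cells were sorted by FACS from mouse small intestine, and RNA went into stranded mRNA libraries. The authors deposited 1 table of raw counts per Ensembl gene for 21 libraries, with no normalisation. The submitters' processing notes name FastQC 0.12.0, STAR 2.7.0a, DESeq2 and the build mm39. The sources used here do not give how reads were counted or whether strand was used, so overlapping genes and close paralogs (Srp54a, Sar1a and Sar1b) may share reads. Columns were matched to samples by name (0 unmatched), and 54749 identifiers matched GENCODE M39, which gave symbols and coordinates on GRCm39. The 665 others held 0.0164% of counts. Srpr was found under its current symbol, Srpra.

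All 21 libraries entered 1 edgeR 4.0.16 fit (R 4.3.3, limma 3.58.1) with a coefficient per group, TMM factors and filterByExpr, which left 13070 genes. Quasi-likelihood F-tests were adjusted by the Benjamini-Hochberg method over all these genes, with a threshold of 0.05, in 12 comparisons. The common dispersion was 0.0369. Intervals are 95% intervals of log2 differences. The tests were first run on simulated data.

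The 47 members and the other gene lists were chosen with earlier results of these data known. In each comparison the text names up to 4 members with the largest rise and 4 with the largest fall among those called with a mean of at least 5 CPM, members called in 2 or more contexts, and 10 members whatever their values (Srp72, Sec61a1, Sec61b, Ssr4, Sec11c, Ddost, Sec24d, Tmed9, Lman1 and Kdelr2). Other lists have up to 2 examples. Alternatives were other scalings and filters, DESeq2 1.42.0, limma-voom, a replicate block, fits of only the groups compared, each library left out, and, added after seeing the data, GC and length offsets. Promoter windows came from RefSeq (GRCm38.p6). Python 3.11.15 and matplotlib 3.10.9 drew the figures.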

Additional observations from a re-analysis of the deposited data

Results flagged for a closer look

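Of 90 groups of 4 libraries examined for a single library far from the others, 9 had one, where chance gives about 1 in 20. In antibiotics-treated mice on Milli-Q water these were Sec13 in replicate 4, at 91.0 CPM against 75.8 to 77.6 in the others, Srp72 in replicate 3, at 71.6 against 63.0 to 63.8, and Ssr3 in replicate 2, at 152 against 175 to 178. In antibiotics-treated mice on zinc water they were Sec23a in replicate 4, at 20.5 CPM against 14.9 to 15.7, and Tmed3 in replicate 1, at 161 against 107 to 115. In germ-free mice on zinc water Sec23a in replicate 3 was at 23.5 CPM against 15.1 to 15.6.

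The other 3 were sums. The 47 genes held 0.861% of non-Defa counts in antibiotics Milli-Q replicate 1 against 0.764 to 0.772% in the others. Their summed CPM was 6141 in antibiotics zinc replicate 1 against 5148 to 5273. The Defa share was 39.3% in germ-free zinc replicate 3 against 41.6 to 42.0%.

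Srp68 moved in opposite directions with zinc, with a log2 difference of 0.15 in SPF mice, where every zinc library was higher, and of -0.35 in germ-free mice, where every zinc library was lower. The tested difference between the contexts was -0.49 ± 0.17 (SE, adjusted p = 0.261, edgeR quasi-likelihood) and did not pass the threshold.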

How the results depend on the processing

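Library totals, which ignore the make-up of a library, changed most. The number of members called was then 3 for zinc with antibiotics, 3 for zinc in germ-free mice and 3 for zinc averaged, against 25, 7 and 17. Germ-free against SPF gave 36 called lower on Milli-Q and 24 lower on zinc water, where 70.9% and 48% of all genes were, and 15 differences reversed. On Milli-Q water these were Tmed9 at -0.088, Srp68 at -0.097, Sec61a1 at -0.65, Sec61b at -0.45, Ssr4 at -0.40, Sec11c at -0.82, Ddost at -0.72 and Kdelr2 at -0.39. On zinc water they were Tmed3 at -0.0024, Ssr4 and Dad1 at -0.12, Rpn2 at -0.23, Sec61a1 at -0.49, Sec11c at -0.56 and Sec24d at -0.68.

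Germ-free against SPF on zinc water gave 2 members with DESeq2-type size factors or TMM without Defa genes, 8 with DESeq2 and 16 with limma-voom. Zinc in germ-free mice and antibiotics against SPF on zinc water gave 13 members each with limma-voom. With only the groups compared these 3 comparisons gave 0, 0 and 8. Between contexts DESeq2 called 1 and 6 (antibiotics against SPF, germ-free against antibiotics), limma-voom 3, 3 and 12, and no filter on low counts 2, 1 and 2. No filter also left 14 members for zinc with antibiotics. GC and length offsets gave 16 there, 14 of them among the 25, and 10 for zinc averaged, 6 of them among the 17, and the slope on output without group coefficients called 14. The causes were not tested.

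Over fits without 1 library, members called ranged from 8 to 24 for zinc with antibiotics, 0 to 17 in germ-free mice, 10 to 19 averaged, 12 to 18 for germ-free against SPF on Milli-Q and 0 to 12 on zinc water, and 1 to 5 for antibiotics against SPF on zinc water. The difference of zinc effects ranged from 0 to 3 between germ-free and SPF and from 0 to 4 between germ-free and antibiotics, with 4 without germ-free zinc replicate 4. It was 0 throughout for zinc in SPF mice, antibiotics against SPF on Milli-Q, antibiotics against SPF in the zinc effect, and the slope.

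Replicate numbers of the sample titles were not seen to pair the libraries, since the deviations of same-numbered libraries correlated between -0.17 and 0.23. For germ-free Milli-Q libraries the numbers of the titles and of the count columns differ in part. Pairing by column number was not tested. With the replicate number as a block, 25, 8 and 17 members were called for zinc with antibiotics, in germ-free mice and averaged, and Sec24d lost its call with antibiotics. Of 2876 single-gene refits in all, 2680 kept direction and side of the threshold, 144 lost and 37 gained a call. Depth limits low genes most, since Srp54a had as few as 9 counts and Sec61g 17.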
